A study of Mus musculus with 6 samples.

Results

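Collagen VI is described here through its 6 chain genes in the mouse, Col6a1 to Col6a6, which were found by gene symbol in a table of 48587 genes from ribosome-bound kidney RNA. They were chosen by their difference between genotypes in these counts, since 2 of them, Col6a1 and Col6a2, were higher in the Foxp1-deficient library of every equally numbered pair. Differences of the chains between genotypes are therefore a description and carry no test. Of the 6 chains, 4 passed the filter on low counts (Col6a1, Col6a2, Col6a3 and Col6a6), and Col6a4 and Col6a5 did not.

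Collagen VI is a microfibrillar collagen of the interstitial matrix that forms beaded filaments close to cell surfaces and basement membranes. Each monomer joins an α1, an α2 and one further chain, classically α3, and the related α4, α5 and α6 chains can stand in the place of α3. Monomers pair into dimers and tetramers inside the cell before secretion, and mutations of COL6A1, COL6A2 or COL6A3 cause human muscle disease. In most organs fibroblasts and other mesenchymal cells are the main source of the protein.

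The series compared 3 Foxp1-deficient libraries (Cdh16Cre with both Foxp1 alleles floxed, and RiboTag) with 3 littermate control libraries (Cdh16Cre with 1 floxed Foxp1 allele over a wild-type one, and RiboTag), all from neonatal kidney. Foxp1 encodes a forkhead transcription factor. The Cdh16 promoter, active in kidney tubule epithelium, drives Cre, and RiboTag puts an HA tag on ribosomes of Cre-expressing cells, so that all 6 libraries were made from RNA caught with anti-HA beads. By the treatment tag, the Foxp1-deficient libraries had a chronic acid load and the controls vehicle, while the protocols name no acid load, so genotype and treatment cannot be told apart. Whether each library came from 1 animal is not stated, so the spread between libraries may be partly technical.

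Libraries held 9710048 to 18958196 counts. Foxp1 itself had 34.6, 11.4 and 29.3 CPM (counts relative to library size, scaled by TMM factors, as are all CPM below) in Foxp1-deficient libraries 1, 2 and 3, against 48.8, 30.8 and 35.9 in controls 1, 2 and 3. It was lower within each pair, but the groups overlapped (log2 fold change -0.62, SE 0.49, adjusted p = 0.9998, edgeR quasi-likelihood test). The log2 fold change was -0.27 without Foxp1-deficient library 2, -0.40 without control 1 and -0.93 without Foxp1-deficient library 1. Gene-level counts also take exons that the floxed allele keeps. Summed CPM of 12 tubule and collecting duct markers was 58.7, 128 and 557 in Foxp1-deficient libraries 1, 2 and 3, and 34.2, 64.4 and 453.5 in controls 1, 2 and 3. Summed CPM of 9 fibroblast and stromal markers was 12233, 4633 and 20088 in Foxp1-deficient libraries 1, 2 and 3, and 12261, 7250 and 19487 in controls 1, 2 and 3. The summed markers of the labelled cell type, kidney tubular cells, were thus below the stromal sum in every library, and no tubule marker was at 0 over all libraries. Lrp2, the megalin gene, made up 22.4% to 96.7% of the tubule sum; without it, a sum chosen after the values were seen, the markers came to 6.22, 7.78 and 380.8 CPM in Foxp1-deficient libraries 1, 2 and 3, and 1.13, 31.9 and 352.2 in controls 1, 2 and 3. Of the 12 tubule markers, 2, 8 and 0 were at 0 in Foxp1-deficient libraries 1, 2 and 3, and 6, 6 and 0 in controls 1, 2 and 3. Cdh16, whose promoter drives Cre, had 0.283, 2.42 and 42.1 CPM in Foxp1-deficient libraries 1, 2 and 3, and 0.332, 10.9 and 43.0 in controls 1, 2 and 3. Both libraries numbered 2 stood apart from the other 4: Foxp1-deficient library 2 had counts for 14285 genes and control 2 for 13885, against 18241 to 22190 in the others.

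The chains lie at 3 places in the mm10 genome. Col6a2 (chromosome 10, 76595762 to 76623630) and Col6a1 (chromosome 10, 76708792 to 76726168) are neighbours in the same orientation, 85.2 kb apart, both on the minus strand. Col6a3 (chromosome 1, 90765923 to 90843971) is alone. Col6a6, Col6a5 and Col6a4 (chromosome 9, 105687809 to 105828160, 105856070 to 105960643, and 105989454 to 106096783) form a row on the minus strand. Rows that overlap a chain were all predicted genes with 0 counts in every library, so no read was counted for them. Whether reads in the overlaps were left out of the chain counts was not tested.

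Because Col6a1 and Col6a2 were both higher in Foxp1-deficient libraries and Col6a3 was not, the windows at their starts are shown (250 bases before to 50 after each start, RefSeq, GRCm38.p6, minus strand, 5′ to 3′). All 6 chains matched, with 7 windows, since Col6a2 has 2 starts there. Capitals mark a forkhead motif, TGTTTAC on the other strand, which reads GTAAACA here. The windows are chr10:76725995-76726294 for Col6a1, chr10:76623355-76623654 and chr10:76623581-76623880 for the inner and the outer start of Col6a2, and chr1:90843922-90844221 for Col6a3. The outer Col6a2 start and the Col6a3 start coincide with the gene ends in the count table.
Col6a1: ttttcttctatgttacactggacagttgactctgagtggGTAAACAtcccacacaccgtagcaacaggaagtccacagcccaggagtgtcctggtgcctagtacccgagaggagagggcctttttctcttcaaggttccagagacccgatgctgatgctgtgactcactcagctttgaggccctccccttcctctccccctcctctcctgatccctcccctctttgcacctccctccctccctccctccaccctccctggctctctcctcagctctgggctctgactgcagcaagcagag
Col6a2, inner start: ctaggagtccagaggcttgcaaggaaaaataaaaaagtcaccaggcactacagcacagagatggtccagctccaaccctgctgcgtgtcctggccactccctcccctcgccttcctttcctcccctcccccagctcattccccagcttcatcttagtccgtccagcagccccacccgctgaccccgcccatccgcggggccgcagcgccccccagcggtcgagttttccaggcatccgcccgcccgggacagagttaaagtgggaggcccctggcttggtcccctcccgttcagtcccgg
Col6a2, outer start: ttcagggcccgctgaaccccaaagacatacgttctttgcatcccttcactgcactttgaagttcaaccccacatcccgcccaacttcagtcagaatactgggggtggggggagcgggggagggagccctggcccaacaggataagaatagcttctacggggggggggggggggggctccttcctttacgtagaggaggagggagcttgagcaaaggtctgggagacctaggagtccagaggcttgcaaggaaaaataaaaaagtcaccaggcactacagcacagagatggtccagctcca
Col6a3: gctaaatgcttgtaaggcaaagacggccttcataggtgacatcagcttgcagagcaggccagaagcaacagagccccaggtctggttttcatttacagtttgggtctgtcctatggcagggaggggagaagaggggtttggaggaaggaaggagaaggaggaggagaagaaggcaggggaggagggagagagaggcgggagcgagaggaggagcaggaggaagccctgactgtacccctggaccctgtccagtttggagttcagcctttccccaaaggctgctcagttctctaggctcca

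The 6-base core TGTTTA was searched on both strands of each window. It occurred once in the Col6a1 window, as TGTTTAC on the other strand, 211 to 205 bases before the start. It also occurred once in the Col6a4 window, as TGTTTAT on the other strand, 156 to 150 bases before the start. It was in neither Col6a2 window, nor in those of Col6a3, Col6a5 and Col6a6. Of 32851 mouse windows of the same length, 13.4% held TGTTTA on either strand, 3.65% held TGTTTAC and 4.6% TGTTTAT, both of which contain the core. The TATA box motif (TATAAA) was in none of the 7 windows, against 13.6% of all windows. GGGCGG, the core of a GC box, was counted on both strands without overlapping matches. It occurred 2 times in the inner Col6a2 window and 1 time in the outer, and 0 times in those of Col6a1 and Col6a3. The Col6a4, Col6a5 and Col6a6 windows held 2, 1 and 2, and 35.7% of all windows had at least 1. The inner Col6a2 window had 16 CpG pairs and 64.3% G and C, the outer 6 and 56.7%, the Col6a1 window 3 and 57.3%, and the Col6a3 window 3 and 56.3%. These letters mark no binding, and their absence from these windows says nothing about Foxp1 elsewhere.

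Col6a1 and Col6a2, the 2 chains present in every collagen VI monomer, were higher in all 3 Foxp1-deficient libraries than in any control. Col6a1 had 300.1, 251 and 353.8 CPM in Foxp1-deficient libraries 1, 2 and 3, against 126.4, 85.5 and 123 in controls 1, 2 and 3. Its groups did not overlap, and the lowest Foxp1-deficient library stood 1.99 times above the highest control. The log2 fold change was 1.43 (SE 0.37), a 2.70-fold higher level. Col6a2 had 222, 253 and 288 CPM in Foxp1-deficient libraries 1, 2 and 3, against 62.1, 55.8 and 67.0 in controls 1, 2 and 3. The gap was wider here, 3.31 times between the nearest libraries, with a log2 fold change of 2.04 (SE 0.34), or 4.13-fold. Within pairs 1, 2 and 3, the log2 difference (after adding 1 CPM) was 1.24, 1.54 and 1.52 for Col6a1, and 1.82, 2.16 and 2.09 for Col6a2. In ribosome-bound RNA pooled over cells, more cells that make collagen VI and more of its RNA per cell cannot be told apart. Other sources of the difference were not tested.

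Col6a3, whose α3 chain is the largest of the classical trimer, did not share this difference. It had 20.6, 3.19 and 33.5 CPM in Foxp1-deficient libraries 1, 2 and 3, against 24.6, 6.51 and 45.1 in controls 1, 2 and 3. The groups overlapped widely, with both libraries numbered 2 lowest and both numbered 3 highest in their group. Within pairs the Foxp1-deficient library was the lower one each time, by log2 differences of -0.25, -0.84 and -0.42. The log2 fold change was -0.41 (SE 0.92), or -0.53 (SE 0.25) with the replicate number as a block, and its sign turned to 0.09 without Foxp1-deficient library 2 and to 0.31 without control 3. Col6a3 varied 10.5-fold among Foxp1-deficient libraries and 6.92-fold among controls, whereas Col6a1 varied 1.41-fold among Foxp1-deficient libraries and 1.48-fold among controls, and Col6a2 1.30-fold among Foxp1-deficient libraries and 1.20-fold among controls.

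**Figure D1:**
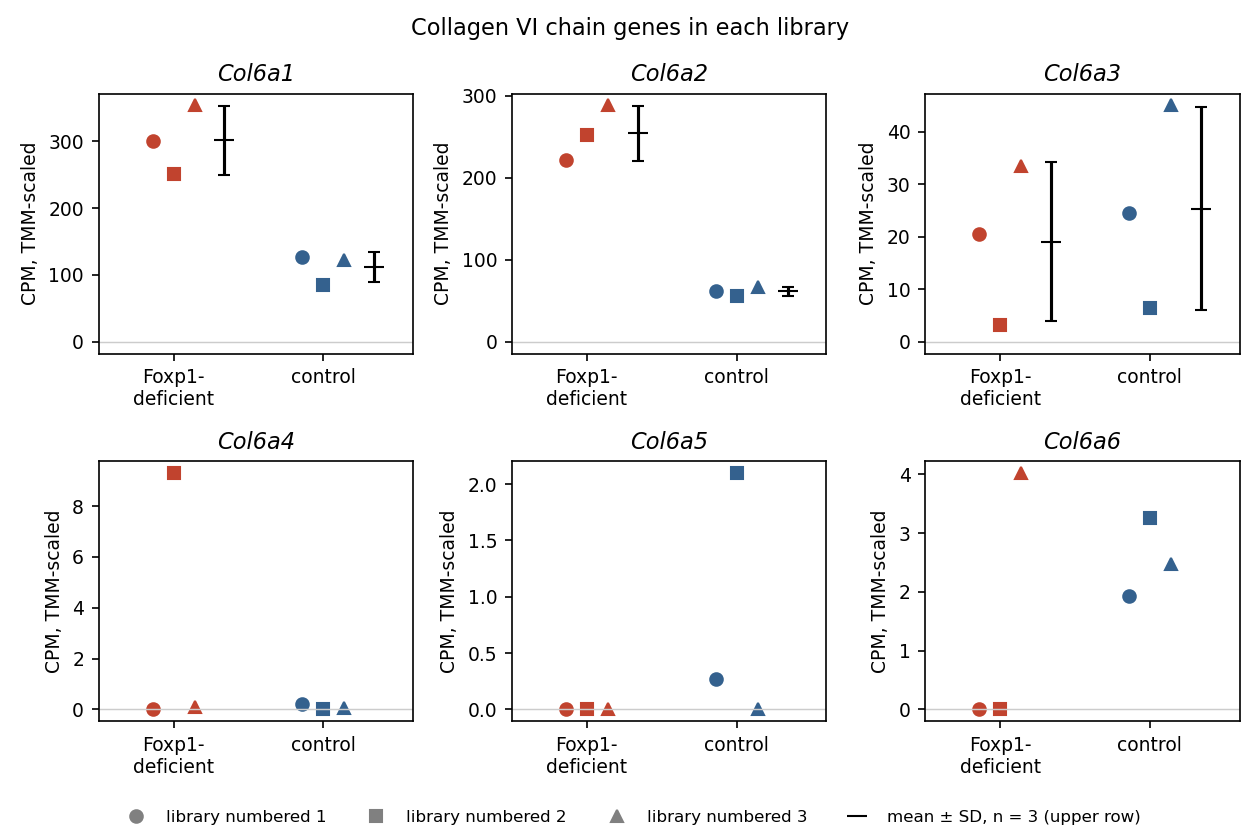
TMM-scaled CPM of each collagen VI chain gene in the 3 Foxp1-deficient (red) and 3 control (blue) libraries, with marker shape for the library number and, in the upper row, bars for mean ± SD (n = 3). Col6a1 and Col6a2 are higher in all Foxp1-deficient libraries than in any control, Col6a3 overlaps, Col6a4 and Col6a5 have most of their signal in 1 library each, and Col6a6 has counts in every control and in Foxp1-deficient library 3.

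Of the 4 chains that passed the filter, 2 were higher without overlap between groups, as were 2.64% of the 14311 genes tested. Likewise 2 were higher in every pair, as were 16.5% of genes, and 1 was lower in every pair, as were 16% of genes. The choice of the chains used this contrast, so nothing is read from these counts. The median log2 fold change over all genes tested was 0.03. Larger log2 fold changes than that of Col6a2 were found for 121 genes, and larger than that of Col6a1 for 375.

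The 3 chains that can replace α3 were sparse, and none of them had counts in all libraries. Col6a6 had 0, 0 and 88 counts in Foxp1-deficient libraries 1, 2 and 3, against 29, 31 and 51 in controls 1, 2 and 3. It was thus present at 1.93 to 3.26 CPM in every control, absent from the counts of 2 Foxp1-deficient libraries, and highest in Foxp1-deficient library 3, at 4.03 CPM. Its fitted log2 fold change, which depends on the prior count where libraries are at 0, was -0.90 (SE 1.88), but -8.18 without Foxp1-deficient library 3 and -0.12 without the libraries numbered 2. Col6a4 had 0, 73 and 2 counts in Foxp1-deficient libraries 1, 2 and 3, against 3, 0 and 1 in controls 1, 2 and 3, so that Foxp1-deficient library 2 held 73 of its 79 counts. Col6a5 had 0 counts in each Foxp1-deficient library, against 4, 20 and 0 in controls 1, 2 and 3. A count of 0 allows up to 3 counts, which is 0.158 to 0.309 CPM per library total, and covers counting error only. The 3 genes together made up 0%, 1.23% and 0.38% of the collagen VI level per length in Foxp1-deficient libraries 1, 2 and 3, against 0.678%, 2.12% and 0.687% in controls 1, 2 and 3.

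Levels of different chains were compared as CPM per kilobase of annotated exon, with exon lengths of 4380 bases for Col6a1, 8326 for Col6a2 and 11963 for Col6a3 from the count table. These lengths join the exons of all annotated transcripts, so a chain with long exons of rarely used transcripts is set too low. On this scale Col6a1 had 68.9 ± 11.7 in Foxp1-deficient libraries and 25.5 ± 5.18 in controls (SD, n = 3 each). Col6a2 had 30.5 ± 4.01 in Foxp1-deficient libraries and 7.4 ± 0.676 in controls. Col6a3 had 1.6 ± 1.27 in Foxp1-deficient libraries and 2.12 ± 1.61 in controls. The order Col6a1, Col6a2, Col6a3 held in each of the 6 libraries, and none of the 3 chains overlapped its neighbour in this order within either genotype. Col6a3, Col6a4 and Col6a6 overlapped in their spread among Foxp1-deficient libraries, at 0.266 to 2.80, 0 to 1.09 and 0 to 0.44 CPM per kilobase. In controls Col6a3, at 0.544 to 3.77, stayed above Col6a6, at 0.21 to 0.355 CPM per kilobase. Among genes tested, 94.1% had a per-length level at or below that of Col6a1 in Foxp1-deficient libraries and 84.7% in controls. For Col6a2 this was 86.7% in Foxp1-deficient libraries and 60.2% in controls, and for Col6a3 26.3% in Foxp1-deficient libraries and 32% in controls.

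The proportions of the chains also differed between libraries. Col6a2 per length was 0.388, 0.53 and 0.429 of Col6a1 in Foxp1-deficient libraries 1, 2 and 3, against 0.258, 0.343 and 0.287 in controls 1, 2 and 3. The groups did not overlap in this ratio, and both libraries numbered 2 had the highest value in their group. Col6a3 per length was 2.51%, 0.465% and 3.47% of Col6a1 in Foxp1-deficient libraries 1, 2 and 3, against 7.12%, 2.79% and 13.4% in controls 1, 2 and 3. Here the groups overlapped, through control 2, and within each pair the Foxp1-deficient library had the lower share. Col6a1 was chosen for being higher in each pair, so nothing is read from this lower share. The summed level of all 6 chains per kilobase was 101.5 ± 15.3 in Foxp1-deficient libraries and 35.4 ± 7.0 in controls (SD, n = 3 each). Col6a1 and Col6a2 made up 67.73% and 30.25% of it on average in Foxp1-deficient libraries, and 72% and 21.28% in controls. The difference in the sum therefore restates the choice of these 2 chains.

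**Figure D2:**
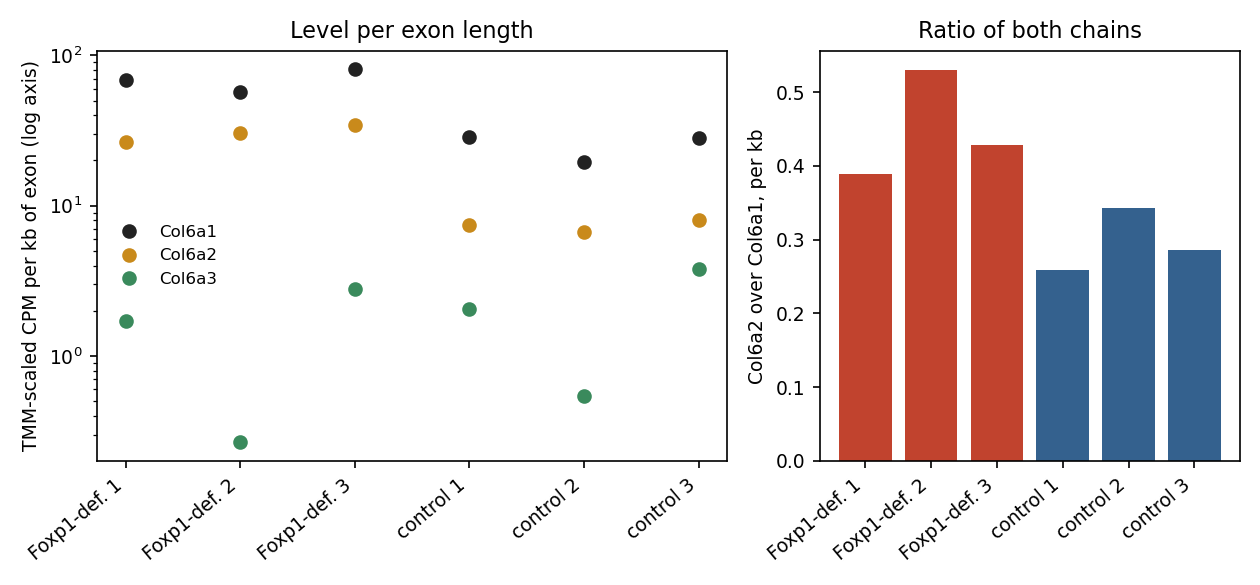
Left, TMM-scaled CPM per kilobase of annotated exon for Col6a1, Col6a2 and Col6a3 in each library (log axis). Right, the ratio of Col6a2 to Col6a1 on the same scale, with Foxp1-deficient libraries in red and controls in blue; the 3 Foxp1-deficient libraries lie at 0.388 to 0.53 and the 3 controls at 0.258 to 0.343.

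Across the 6 libraries, log2 CPM of Col6a1 and Col6a2 correlated at Pearson r = 0.97, and at r = 0.64 once each genotype's mean was taken away. Col6a1 and Col6a3 correlated at r = 0.08 over all libraries and at r = 0.92 after that step, and Col6a2 and Col6a3 at -0.14 and 0.50. The r over all libraries includes the genotype difference by which Col6a1 and Col6a2 were chosen. Libraries also differed in depth, and deviations of same-numbered libraries correlated, so these values describe the 6 libraries only. Among 10326 tested genes averaging at least 5 CPM, Serpinb1a (a serpin protease inhibitor), Fasn (fatty acid synthase), Sema3c (a secreted semaphorin), Efemp1 (a fibulin of the elastic fibre surface) and Col6a2 were most like Col6a1, at r = 0.98, 0.97, 0.97, 0.97 and 0.97. Most like Col6a2 were Smpd3 (a neutral sphingomyelinase), Serpinb1a, Col6a1, Efemp1 and Cobl (an actin nucleator), at r = 0.98, 0.98, 0.97, 0.97 and 0.96. Since Col6a1 and Col6a2 were chosen for their genotype difference, genes with the same difference rank high in this likeness. Likeness of these genes within genotypes was not computed. Serpinb1a had 16.6 ± 7.54 CPM in Foxp1-deficient libraries and 2.64 ± 0.692 in controls, and Efemp1 149.7 ± 22.3 in Foxp1-deficient libraries and 50.1 ± 9.18 in controls (SD, n = 3 each). Col6a3 ranked 6896th in likeness to Col6a2 and 4804th in likeness to Col6a1. The genes most like Col6a3 were others, Ift74 (intraflagellar transport), Zswim4, Syde2, Snx24 (a sorting nexin) and BC005537, at r = 0.99 to 1.00, and they are low in both libraries numbered 2. They come from a large set, since 300 genes had r of at least 0.95 with Col6a3, against 15 with Col6a1 and 10 with Col6a2. Col6a6 was most like Pigp (glycosylphosphatidylinositol anchor synthesis), Mettl20, Zfp787, Zfp157 and Auts2, at r = 0.96 to 0.99. Its counts were 0 in Foxp1-deficient libraries 1 and 2 and at most 88 in any library, so this likeness rests on few counts.

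Genes beside the Col6a2 and Col6a1 pair were looked at next. Lss, a cholesterol synthesis gene 38.6 kb from Col6a2, had 55.9, 49.5 and 65.1 CPM in Foxp1-deficient libraries 1, 2 and 3, against 49.2, 34.8 and 48.1 in controls 1, 2 and 3 (log2 fold change 0.37, SE 0.33, adjusted p = 0.9998, edgeR quasi-likelihood test; 0.22 without control 2). Pcbp3, which encodes an RNA-binding protein and lies 35.7 kb from Col6a1, had 8.2, 7.01 and 7.14 CPM in Foxp1-deficient libraries 1, 2 and 3, against 5.12, 2.63 and 7.0 in controls 1, 2 and 3 (log2 fold change 0.60, SE 0.63, adjusted p = 0.9998; 0.29 without control 2 and 0.94 without control 3). Both genes were higher in each pair and without overlap, by narrow margins, as were 16.5% and 2.64% of all genes tested. Slc19a1, the reduced folate carrier gene further out, had 23.7 ± 6.28 CPM in Foxp1-deficient libraries and 19.3 ± 1.59 in controls and overlapped (log2 fold change 0.29, SE 0.39, adjusted p = 0.9998; 0.10 without Foxp1-deficient library 2 and 0.46 without Foxp1-deficient library 3). Ftcd, the closest neighbour at 5.42 kb, had 10 counts over all libraries. None of the 3 tested neighbours passed the test, where 0% of all genes tested were called, and Ftcd was too low to test. Around Col6a3 the nearest named genes with at least 10 counts were Cops8, Ackr3, Mlph and Rab17, and around the chromosome 9 row Pik3r4, Atp2c1, Glyctk and Wdr82. Pik3r4, 0.152 kb from Col6a6, had 23.1 ± 6.17 CPM in Foxp1-deficient libraries and 23.6 ± 2.65 in controls.

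Genes that act with collagen VI were read from 4 lists, of receptors, matrix partners, folding and secretion factors, and processing proteases. Of 53 listed genes 50 could be tested, and 0 were higher and 0 lower at an adjusted p under 0.05 in edgeR's quasi-likelihood test, where 0% of all genes were called in either direction. None of the 50 had an unadjusted p under 0.05 without a block, against 0.72% of all genes, and 7 had one with the replicate number as a block, against 5.32%. The log2 fold change was above 0 for 37 and below 0 for 13, with a median of 0.13, beside 0.03 over all genes tested. In every pair 17 of the 50 were higher and 5 lower, beside 16.5% and 16% of all genes, and 2 were higher and 0 lower without overlap, beside 2.64% and 2.11%. DESeq2 with a block called 2 of them, Dcn and Hspg2, both higher, with 1.43% of all genes with an adjusted p called. DESeq2 without a block called 0 of the 50 and 0.0426% of all genes, limma-voom 0 and 0%, limma-voom with a block 0 and 0.0559%, and edgeR with a block and without the libraries numbered 2 called 0 and 0.196%.

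Receptor genes showed no called difference, with 9 of 11 tested above 0 and 2 below, and a median log2 fold change of 0.15. Itga3, an integrin chain gene, had 582.5, 497 and 444 CPM in Foxp1-deficient libraries 1, 2 and 3, against 401.3, 431.7 and 407.2 in controls 1, 2 and 3. Its groups did not overlap, by a small margin (log2 fold change 0.30, SE 0.35, adjusted p = 0.9998, edgeR quasi-likelihood test), and the value was 0.17 without Foxp1-deficient library 1. Antxr2, encoding the anthrax toxin receptor CMG2 that takes up collagen VI, had 86.6 ± 26.8 CPM in Foxp1-deficient libraries and 68.2 ± 9.28 in controls. Antxr1, encoding its relative TEM8, had 27.6 ± 6.58 CPM in Foxp1-deficient libraries and 46.9 ± 23.2 in controls and was lower in each pair (log2 fold change -0.77, SE 0.45, adjusted p = 0.9998; -0.29 without control 3). Cspg4, encoding the NG2 proteoglycan that binds collagen VI, had 41.0 ± 16.6 CPM in Foxp1-deficient libraries and 35.1 ± 2.68 in controls, and Itga1, a collagen-binding integrin chain gene, 74.8 ± 59.8 in Foxp1-deficient libraries and 81.5 ± 52.7 in controls. Itga2 was too low to test.

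Matrix partner genes had 9 of 12 tested members above 0 and 3 below, with a median log2 fold change of 0.24. Tnxb, encoding tenascin-X of connective tissue, had 9.05, 40.4 and 45.0 CPM in Foxp1-deficient libraries 1, 2 and 3, against 8.9, 14.4 and 14.8 in controls 1, 2 and 3. Library 1 of each genotype was nearly equal, and the other pairs were apart (log2 fold change 1.31, SE 0.63, adjusted p = 0.9998, edgeR quasi-likelihood test). Hspg2, encoding perlecan, had 850.1, 1068 and 1116 CPM in Foxp1-deficient libraries 1, 2 and 3, against 465.4, 609.8 and 826.1 in controls 1, 2 and 3, with no overlap between groups (log2 fold change 0.67, SE 0.41, adjusted p = 0.9998). Dcn, encoding decorin, a small proteoglycan that binds collagen VI, had 430.7, 246.6 and 733 CPM in Foxp1-deficient libraries 1, 2 and 3, against 269.7, 174.7 and 368.1 in controls 1, 2 and 3, with overlap (log2 fold change 0.80, SE 0.52, adjusted p = 0.9998), and its value was 0.31 without Foxp1-deficient library 3. It is also 1 of the 9 stromal markers. Bgn, encoding the related biglycan, had 820.1 ± 352.4 CPM in Foxp1-deficient libraries and 857.8 ± 198.4 in controls, and Fn1, encoding fibronectin, 4525 ± 3174 in Foxp1-deficient libraries and 4585 ± 2146 in controls. The directions of Bgn and Fn1 turned when libraries were left out. Matn3 had 0.916 ± 0.856 CPM in Foxp1-deficient libraries and 1.25 ± 1.13 in controls, and Matn1 and Matn4, encoding other matrilins, were too low to test.

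Genes for folding, modifying and secreting collagens all passed the filter on low counts. Of the 21, 16 were above 0 and 5 below, with a median log2 fold change of only 0.08. Serpinh1, encoding the collagen chaperone HSP47, had 2517 ± 1152 CPM in Foxp1-deficient libraries and 2893 ± 1001 in controls (SD, n = 3 each). P4ha1, encoding a prolyl 4-hydroxylase subunit, had 204.3 ± 104.3 CPM in Foxp1-deficient libraries and 234.1 ± 71.5 in controls. Plod3, a lysyl hydroxylase gene whose product also glycosylates collagen, had 168.4 ± 54.5 CPM in Foxp1-deficient libraries and 135.8 ± 25.5 in controls. Ppib, encoding cyclophilin B, had 121.7 ± 3.78 CPM in Foxp1-deficient libraries and 131.2 ± 8.99 in controls, and Klhl12, encoding an adaptor for large secretory vesicles, 19.5 ± 3.96 in Foxp1-deficient libraries and 14.9 ± 4.38 in controls. Colgalt2, a collagen galactosyltransferase gene, was near the floor at 1.0 ± 0.488 CPM in Foxp1-deficient libraries and 0.405 ± 0.701 in controls. Adjusted p was 0.9998 for each of these 6 genes (edgeR quasi-likelihood test).

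Among proteases, 3 of 6 were above 0 and 3 below. Bmp1, whose product cleaves the end of the α3 chain, had 151.8 ± 47.6 CPM in Foxp1-deficient libraries and 124 ± 35.6 in controls, and Mmp14, encoding a membrane-bound collagenase, 317 ± 65.6 in Foxp1-deficient libraries and 267 ± 55.1 in controls (SD, n = 3 each). Furin, encoding a proprotein convertase, had 91.5 ± 9.93 CPM in Foxp1-deficient libraries and 79.9 ± 23.8 in controls. Mmp2, encoding gelatinase A, had 199.6, 87.0 and 301.3 CPM in Foxp1-deficient libraries 1, 2 and 3, against 294.9, 217.6 and 377.1 in controls 1, 2 and 3. It was lower in each pair, with overlap between groups (log2 fold change -0.60, SE 0.52, adjusted p = 0.9998, edgeR quasi-likelihood test). Its value was -0.24 without Foxp1-deficient library 2, -0.38 without control 3 and -1.06 without Foxp1-deficient library 3. Mmp9 had 3.68 ± 2.65 CPM in Foxp1-deficient libraries and 8.99 ± 7.63 in controls, and Mmp11 11.9 ± 4.79 in Foxp1-deficient libraries and 14.1 ± 1.32 in controls.

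**Figure D3:**
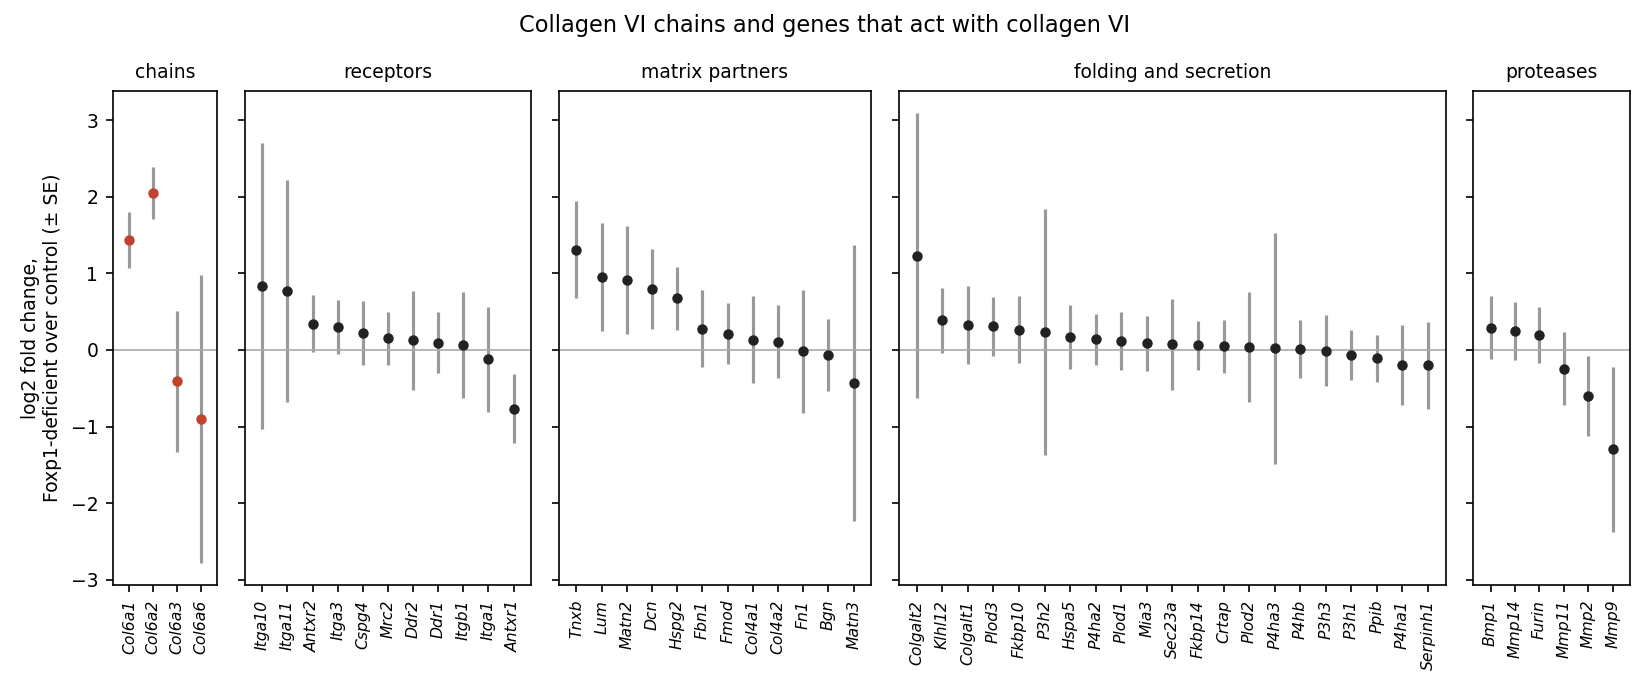
Log2 fold change, Foxp1-deficient over control, with its SE, for the 4 tested collagen VI chains (red) and the 50 tested genes of 4 lists of genes that act with collagen VI (black). Col6a2 lies at 2.04 and Col6a1 at 1.43, and the other genes lie between -1.30 for Mmp9 and 1.31 for Tnxb.

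Other collagen genes gave a setting for these values. Of 29 other collagen chain genes tested, 16 had a log2 fold change above 0 and 13 below, with a median of 0.09, and 0 had an unadjusted p under 0.05. None was higher without overlap between groups and 1 was lower, Col26a1, at 2.54 CPM in Foxp1-deficient libraries and 6.81 in controls, beside 2.64% higher and 2.11% lower of all genes tested. The highest value was that of Col13a1, at 1.39 (SE 1.41), with 2.94 CPM in Foxp1-deficient libraries and 1.10 in controls. Of the 29, 0 lay above Col6a1 or Col6a2, but these 2 chains were chosen by this contrast, so nothing is read from that order. Col26a1 and Col13a1 were named after their values were seen.

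Markers of other cell types were summed beside the chains. The 7 mesothelial markers summed to 2649, 6285 and 3002 CPM in Foxp1-deficient libraries 1, 2 and 3, against 1978, 2496 and 1772 in controls 1, 2 and 3, so this sum did not overlap between genotypes, as for Col6a1 and Col6a2. On its own, each of the 7 markers overlapped between genotypes. Of the 7, 6 had a log2 fold change above 0, with no marker at 0, and 3 were higher in each pair, beside 16.5% of all genes tested. None passed the test, where 0% of all genes tested were called. Msln, the mesothelin gene, ranged from 419.7 to 1594 CPM in Foxp1-deficient libraries and from 173.6 to 646.2 in controls, and Wt1, a transcription factor gene of mesothelium and podocytes, from 86.3 to 135.9 in Foxp1-deficient libraries and from 63.6 to 182.3 in controls. Within pairs 1, 2 and 3 the log2 difference of the mesothelial sum was 0.42, 1.33 and 0.76, beside 1.82, 2.16 and 2.09 for Col6a2. The part of mesothelial RNA in the collagen VI difference was not tested.

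The fibroblast and stromal sum, given above, overlapped between genotypes and differed within pairs by -0.003, -0.65 and 0.04 on the log2 scale. Smooth muscle and pericyte markers, 7 in all, summed to 9775, 8868 and 5043 CPM in Foxp1-deficient libraries 1, 2 and 3, against 12156, 20941 and 9296 in controls 1, 2 and 3. This sum was lower within each pair, with overlap, as were 5 of the 7 markers, beside 16% of all genes tested. The log2 fold change was 0.02 for Rgs5 and 0.03 for Notch3. Macrophage and leukocyte markers summed to 50.2, 155.7 and 403.7 CPM in Foxp1-deficient libraries 1, 2 and 3, against 270.9, 298.8 and 881.2 in controls 1, 2 and 3. Of these markers, 6 of 7 were lower in each pair, beside 16% of all genes tested. Endothelial markers summed to 129 to 177 CPM in Foxp1-deficient libraries and 93.8 to 194.7 in controls, but Tek made up 38.7% to 88% of that sum, and 6 of the 7 markers had a log2 fold change below 0 (median -1.07). Without Tek, a sum chosen after the values were seen, they came to 40.3, 15.4 and 58.5 CPM in Foxp1-deficient libraries 1, 2 and 3, against 87.0, 36.0 and 102.5 in controls 1, 2 and 3, lower in each pair with overlap between groups. Nerve and Schwann cell markers summed to 9.61 to 15.0 CPM in Foxp1-deficient libraries and 3.78 to 16.3 in controls, with Sox10 at 0. Chondrocyte markers summed to 19 to 48.3 CPM in Foxp1-deficient libraries and 16.8 to 43.6 in controls, with Matn1 at 0. Skeletal muscle markers summed to 10.6 to 40.5 CPM in Foxp1-deficient libraries and 12.6 to 33.5 in controls. Adipocyte markers summed to 0 to 8.84 CPM in Foxp1-deficient libraries and 0 to 10.2 in controls, with Plin1, Cidec and Lep at 0. No tested marker of the 10 lists passed the test in edgeR, with or without a block, where 0% of all genes tested were called. Tested were 0 adipocyte, 3 nerve and Schwann cell, 3 chondrocyte and 4 skeletal muscle markers, of 7 listed in each. The part of these cell types in the chain values was not tested.

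**Figure D4:**
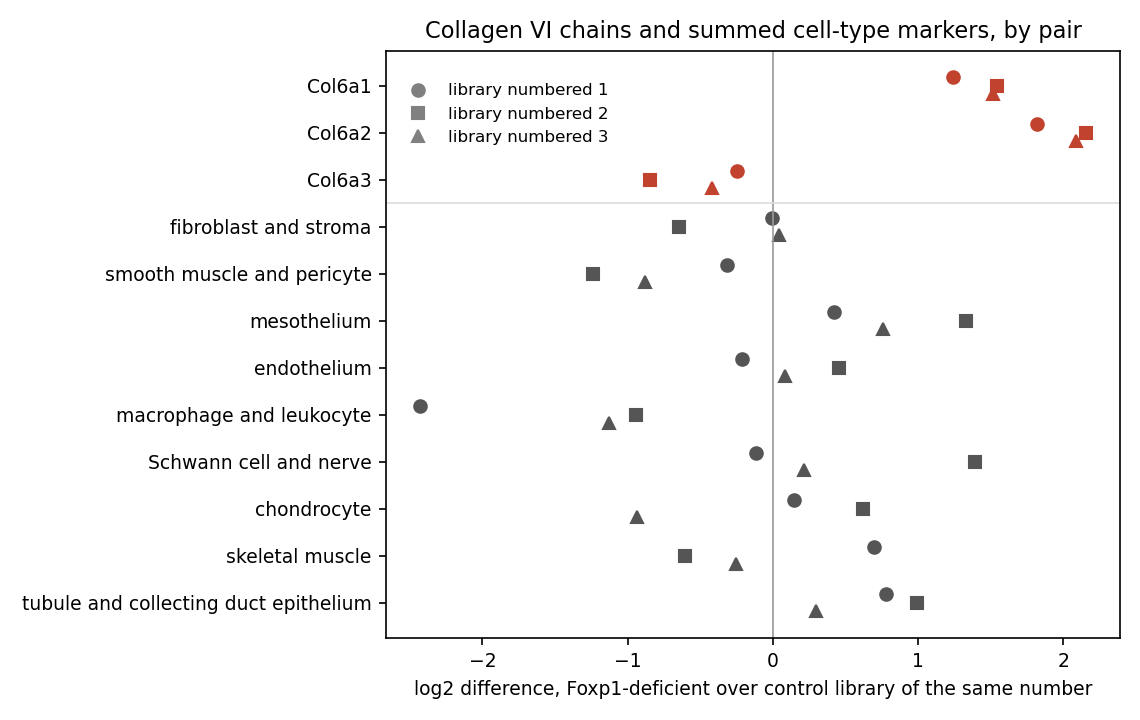
Log2 difference, Foxp1-deficient over control library of the same number, for Col6a1, Col6a2 and Col6a3 (red, after adding 1 CPM) and for the summed CPM of 9 lists of cell-type markers (grey; adipocyte markers, at 0 in both libraries numbered 2, are not drawn). Col6a1 and Col6a2 lie right of 0 in each pair, as do the mesothelial sum and the tubule sum, the last of which turns left in pair 2 without Lrp2. Col6a3 and the smooth muscle and macrophage sums lie left.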

How the data were processed

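Ribosome-bound RNA was counted in 3 Foxp1-deficient and 3 control libraries, grouped and numbered by sample title. Per the file headers, featureCounts 1.5.1 gave the deposited raw counts, summing paired reads on exons by gene name (mm10, annotation version 86) with neither strand nor multi-mapping switched on. The submitters' processing notes list STAR, Trimmomatic and DESeq2 among the tools. How reads were aligned is not given in the sources used here. Exon lengths per gene were also deposited. All 48587 rows had a gene name.

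Counts were tested with edgeR 4.0.16 in R 4.3.3 (TMM, filterByExpr, quasi-likelihood F test, Benjamini-Hochberg adjustment over 14311 genes, threshold 0.05, two-sided). For edgeR, SE is the absolute log2 fold change over the square root of F. The scripts were tested on simulated data. DESeq2 1.42.0, limma-voom (limma 3.58.1), other factors and filters, a replicate block and left-out libraries were alternatives. Deviations of same-numbered libraries correlated at 0.574, 0.53 and 0.617 in pairs 1, 2 and 3, so the numbers were taken to pair libraries, from the data and not from the labels.

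Members and gene lists were chosen with earlier results of these data known. Named were all chains, the 3 genes of lowest p per direction in each of the 4 lists, 2 neighbours per side with at least 10 counts, and the 5 genes most like each tested chain, without predicted genes, by Pearson r of log2(CPM + 1). Figures were drawn with matplotlib.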

Additional observations from a re-analysis of the deposited data

How the results depend on the processing

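Col6a1 and Col6a2 kept their direction in all 18 alternatives, with log2 fold changes of 1.39 to 1.44 and 1.98 to 2.05 outside the fits that left out 1 library, and 1.27 to 1.55 and 1.93 to 2.12 in those. Both were chosen for being higher in every pair of these same libraries, so nothing is read from the kept direction. Col6a3 ranged from -0.53 to -0.34, and from -1.09 to 0.31 with 1 library left out, where its sign turned without control 3 or Foxp1-deficient library 2. Col6a6 was -0.90, but -3.45 in limma-voom, -3.93 with the replicate block, -5.32 in DESeq2 with a block, and -8.18 to -0.32 with 1 library left out; the cause was not tested. The stricter filter gave it no value, and Col6a4 and Col6a5 had fold changes only without a filter, which are not given since each has groups at or near 0.

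Genes called over the whole table numbered 0 in edgeR, with or without the replicate block (762 at an unadjusted p under 0.05 with it, 103 without). They were 6 in DESeq2, 169 in DESeq2 with a block, 8 in limma-voom with a block, and 30 in edgeR with a block and without the libraries numbered 2. Genes called in the 4 lists were 0, or 2 in DESeq2 with a block. Alternatives were run for 27 other genes, the 23 named from the 4 lists with Lss, Pcbp3, Slc19a1 and Foxp1, and not for the other neighbours or the genes most like a chain. Of the 27, 7 turned direction in an alternative, and 25 turned or moved by over 1.5 times without at least 1 of the libraries (the exceptions were Hspg2 and Tnxb). Fn1 turned to 0.015 with library totals, 0.14 without the libraries numbered 2, and 0.14 so with a block; Bgn turned to 0.22 in each of the last 2. With 1 library left out the range was -1.02 to 0.54 for Itga1, -0.45 to 0.20 for Bgn, -1.20 to 0.24 for Matn3, -0.40 to 0.47 for Fn1, -0.56 to 0.17 for P4ha1, -0.46 to 0.14 for Serpinh1 and -0.036 to 0.37 for Furin. At these depths a count of 0 allows up to 3 counts per library.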
